A study of Mus musculus with 4 samples.

Results

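Sebaceous gland cells of mouse digits were identified in 4 single-cell RNA-Seq libraries, made after amputation of the digit tip, by the detection of sebaceous genes. A barcode was kept if it held 200 to 5500 genes, at most 30000 UMIs (unique molecular identifiers, each counting 1 captured mRNA molecule) and at most 10% mitochondrial UMIs, and it was called sebaceous if at least 4 of the 6 genes Far2, Awat1, Cidea, Soat1, Acoxl and Fa2h had 1 or more UMIs. The rule found 1415 sebaceous cells among 93602 kept cells, which is 1.51%. The cells were thus selected on the measured counts of these 6 genes, so their levels are given as a description only, and so is every ratio of sebaceous cells to other cells.

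Sebaceous glands open into the upper hair follicle and secrete sebum, an oily mixture of wax esters, triglycerides, cholesterol esters and squalene that coats hair and skin. Their cells, sebocytes, start as dividing cells at the edge of the gland, move inward while they fill with lipid droplets, and finally burst to release their whole content, a mode of secretion called holocrine. PPARG is a known regulator of this program, and MC5R, a melanocortin receptor, is needed for normal sebum output in mice.

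All groups were female C57BL/6 mice (C57BL/6J in the study's methods) of 6-8 weeks, and the hindlimb digits of 10 mice were pooled into each library, so that every condition is represented by 1 library. In the first experiment mice received chow with SAR131675, an inhibitor of the lymphatic growth factor receptor VEGFR3, at 30 mg/kg of chow for 8 days by the series' design text, against a matched diet (control diet). The study's methods start the chow before the amputation and keep it throughout, so the length of the diet is not settled. In the second, lymph nodes were removed from one limb (LNR) and the opposite limb had sham surgery, so these libraries may come from the same mice, which the labels do not state. The tip of the terminal digit bone (P3) had been amputated in all groups. The study's text places the single-cell samples at 8 days after amputation, although one of its legends names another day. By its methods the digits were collected by a cut proximal to P3, so the pools also held tissue proximal to the wound. The range of digits named as collected is wider than that named as amputated.

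With 1 library per condition, and each labelled as its own batch, condition and batch cannot be told apart, and no test between conditions was possible. Levels are in CPM, the UMIs of a gene summed over the sebaceous cells of a library and scaled to the same total in each library, and ratios of levels are given on the log2 scale with exact 95% intervals, which cover counting error only. The libraries held 168507188 to 585284877 UMIs. Cells of the SAR131675 and control diet libraries were deeper than those of the LNR and sham libraries, with medians of 11316, 10712, 5725 and 5851 UMIs per kept cell, and the file headers name different versions of the counting software for the pairs, so conditions were compared only within a pair.

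The promoters of 5 sebaceous genes are printed here because sebaceous cells differed among themselves in the cholesterol synthesis genes (Hmgcs1, Idi1), in Soat1, which makes cholesterol esters, and in Elovl4 and Scd3, genes of the cells rich in Awat1. They were chosen with these values known. Each runs from 250 bases before to 50 bases after the annotated start, taken from RefSeq on GRCm38.p6, which is not the build of the counts, and matches of 5 motifs on either strand are in capitals. The sterol response motif was searched as TCACNCCAC, where N is any base. The E-box, which many helix-loop-helix factors can bind, was searched as CACGTG. For the box of the factor NF-Y the letters were CCAAT, and for the TATA box, found near the start of some genes, they were TATAAA. The PPAR response element (DR1) was the other motif.
Hmgcs1, chr13:119690101-119690400, plus strand: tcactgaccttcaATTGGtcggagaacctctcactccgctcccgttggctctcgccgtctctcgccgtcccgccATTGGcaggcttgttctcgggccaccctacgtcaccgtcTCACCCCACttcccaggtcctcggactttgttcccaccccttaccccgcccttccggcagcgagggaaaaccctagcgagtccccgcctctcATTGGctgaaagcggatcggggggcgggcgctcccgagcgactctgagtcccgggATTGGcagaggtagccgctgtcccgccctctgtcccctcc
Idi1, chr13:8885356-8885655, plus strand: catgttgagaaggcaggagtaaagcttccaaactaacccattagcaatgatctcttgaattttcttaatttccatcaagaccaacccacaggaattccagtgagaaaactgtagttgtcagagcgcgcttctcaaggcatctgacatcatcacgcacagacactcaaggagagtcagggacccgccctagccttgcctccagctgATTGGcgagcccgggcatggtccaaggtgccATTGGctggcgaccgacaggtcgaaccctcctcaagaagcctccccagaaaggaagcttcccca
Soat1, chr1:156474279-156474578, minus strand: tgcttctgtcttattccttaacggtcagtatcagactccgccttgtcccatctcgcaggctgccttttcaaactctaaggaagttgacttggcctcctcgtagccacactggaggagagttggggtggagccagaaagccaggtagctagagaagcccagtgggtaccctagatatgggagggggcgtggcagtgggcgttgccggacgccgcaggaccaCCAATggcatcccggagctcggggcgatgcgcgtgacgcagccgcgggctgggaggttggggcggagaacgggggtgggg
Elovl4, chr9:83806256-83806555, minus strand: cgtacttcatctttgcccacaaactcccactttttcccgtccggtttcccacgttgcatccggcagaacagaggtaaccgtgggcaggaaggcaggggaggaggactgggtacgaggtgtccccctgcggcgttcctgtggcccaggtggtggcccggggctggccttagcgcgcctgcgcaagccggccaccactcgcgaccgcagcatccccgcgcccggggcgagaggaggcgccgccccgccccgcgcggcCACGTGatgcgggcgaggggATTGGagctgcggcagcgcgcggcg
Scd3, chr19:44203038-44203337, plus strand: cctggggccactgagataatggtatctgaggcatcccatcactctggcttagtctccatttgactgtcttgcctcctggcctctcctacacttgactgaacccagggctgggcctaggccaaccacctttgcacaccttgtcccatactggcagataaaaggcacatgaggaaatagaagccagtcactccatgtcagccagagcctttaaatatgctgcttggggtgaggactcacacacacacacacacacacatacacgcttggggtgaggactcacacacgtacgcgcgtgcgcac
The Hmgcs1 promoter, of the enzyme that begins cholesterol synthesis, held the sterol response letters TCACCCCAC and 4 CCAAT matches, read as ATTGG on the other strand. Elovl4 held CACGTG and CCAAT, and Scd3 held none of the 5 motifs. Of the 21 genes listed for cholesterol synthesis and uptake, 15 matched an entry in the promoter table, and all 15 had CCAAT, against 41.1% of 27025 genes with a promoter. CACGTG stood in 4 of the 15 (8.09% of all genes), TCACNCCAC in 1 (1.44%), and the PPAR element (0.244%) and TATAAA (15.7%) in 0. Among the 9 of the 15 leading sebaceous genes that matched, 4 had CCAAT, a share near that of all genes. These matches describe letters in the window and were not tested for any role.

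Sebaceous cells made up a small part of every library. There were 319 among 19827 kept cells with LNR (1.61%, exact binomial interval 1.44 to 1.79%), 501 among 20669 with sham (2.42%, 2.22 to 2.64%), 306 among 29076 with SAR131675 (1.05%, 0.938 to 1.18%) and 289 among 24030 with control diet (1.20%, 1.07 to 1.35%). The sham share was the highest and lay outside the interval of LNR, whereas the intervals of SAR131675 and control diet overlapped. Sebaceous cells were deeper than the rest, with median UMIs of 19053, 17738, 17382.5 and 15626 in LNR, sham, SAR131675 and control diet against 5623, 5705, 11276 and 10671 in other kept cells. The rule needs UMIs of at least 4 markers, which deeper barcodes meet more easily, so this depth is given as a description only. No sebaceous barcode was shared between libraries.

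The sham library stood apart in the makeup of its sebaceous barcodes. A barcode was called mixed if more than 1% of its UMIs came from genes of spinous or granular keratinocytes, fibroblasts, endothelial, immune, pigment, Schwann or muscle cells, leaving out Sbsn and Dmkn, a limit chosen after the sham values had been seen. Levels of these genes without mixed barcodes are therefore partly fixed by that definition wherever they are given. Mixed barcodes were 165 of 501 sebaceous cells with sham (32.9%), 18 of 319 with LNR (5.64%), 27 of 306 with SAR131675 (8.82%) and 28 of 289 with control diet (9.69%). Scrublet, a doublet caller, marked 7 of the mixed barcodes with sham, 9 with LNR, 10 with SAR131675 and 0 with control diet, where it called 0.907% of all kept cells against 4.67 to 7.41% in the other libraries, so leaving out called doublets removed no sebaceous cell with control diet. Without mixed barcodes the sebaceous share was 1.64% with sham (336 cells) and 1.52% with LNR (301 cells).

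**Figure D1:**
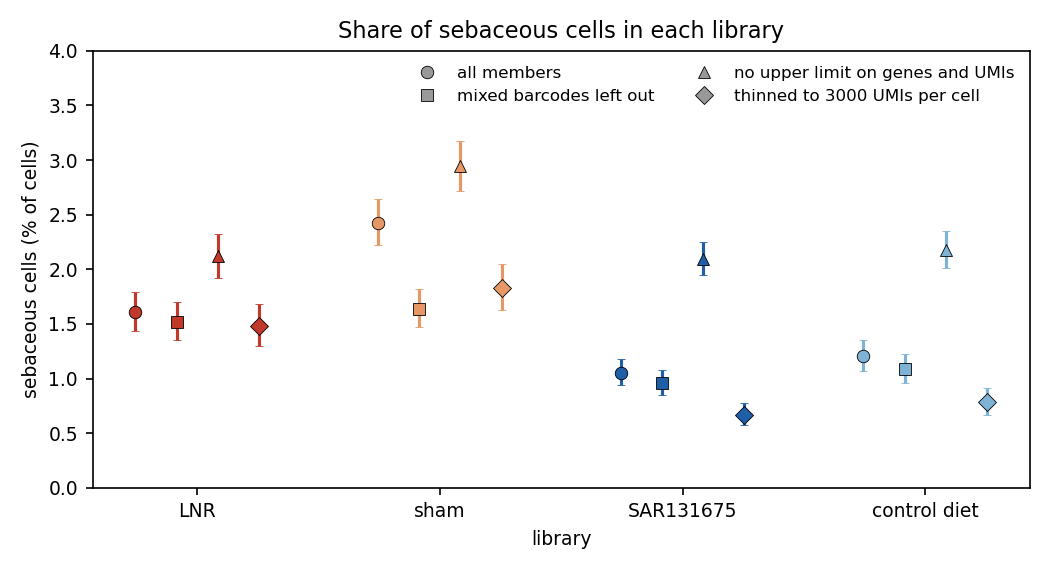
Share of sebaceous cells in each library (y axis, percent of cells) with exact 95% binomial intervals, for all sebaceous cells (circles), without mixed barcodes (squares), without the upper limits on genes and UMIs (triangles) and with every cell thinned to 3000 UMIs (diamonds). The sham circle, at 2.42%, is above the LNR circle, at 1.61%, while their squares, at 1.64% and 1.52%, have overlapping intervals.

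The upper limits on cells removed many barcodes that carried the sebaceous genes. Of all barcodes with at least 4 of the 6 markers, 62.1% with SAR131675 and 56.2% with control diet lay outside the limits, compared with 24.4% and 22.1% of all barcodes in those libraries, and 32.8% and 24.7% with LNR and sham, compared with 8.50% and 8.30%. Without the upper limits the shares were 2.09%, 2.18%, 2.12% and 2.94% with SAR131675, control diet, LNR and sham. With every cell thinned to 3000 UMIs they were 0.670%, 0.782%, 1.48% and 1.83%, and the shallower cells left out included 19, 56, 10 and 13 sebaceous cells.

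Genes known for sebaceous glands that the rule did not use were present in the cells it found. Of 15 such markers, a median of 10 per sebaceous cell was detected in each library, against 2 or 3 in the other cells, and no sebaceous cell lacked all of them. Sebaceous cells were also 1.46 to 3.39 times as deep by median UMIs, and these detection counts were not compared at matched depth. Scd1, the desaturase that makes monounsaturated fatty acids, was at 12815 CPM with LNR, 10716 with sham, 7341 with SAR131675 and 9086 with control diet, which is 6.04 to 6.74 higher than in other kept cells on the log2 scale. Mc5r was at 330, 275, 302 and 286 CPM in the same order, a difference of 5.09 to 5.44. Both genes stood far above the rest of the digit in all 4 libraries.

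Pparg was at 133 and 109 CPM with LNR and sham and at 634 and 679 CPM with SAR131675 and control diet, levels that are not compared between the pairs, and it stood above other cells by 3.42 to 5.15 on the log2 scale in each. Mgst1, a glutathione transferase of the endoplasmic reticulum, was at 3354 to 4678 CPM, Plin2, a lipid droplet coat protein, at 889 to 1214 CPM, and Elovl3, an elongase of very long fatty acids, at 332 to 791 CPM. Muc1, a mucin also listed as a marker, went against the label with at most 2 UMIs in any library. Prdm1, proposed in skin as a marker of sebaceous progenitors and of mature sebocytes, was near the level of the other cells, with a difference of -0.23 to 0.99.

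Lipid-laden cells of another kind were looked for. The adipocyte genes Adipoq, Lep and Ucp1 were at 0 UMIs in all 4 libraries, which allows up to 0.754 CPM in the shallowest pool, that of control diet, at a floor of 3 counts. Summed over the 8 adipocyte genes, sebaceous cells held 17.1 to 63.6 CPM and other cells 60.0 to 152 CPM. Fibroblast genes summed to 326 to 1611 CPM in sebaceous cells and to 4300 to 7831 CPM in the others, and the upper end, in sham, was 351 CPM without mixed barcodes. Mixed barcodes were defined in part by fibroblast genes, so the last value is partly fixed by that choice. The 8 sweat gland genes, such as Krt8 and Krt18, summed to at most 12.1 CPM.

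Cells on either side of the rule's limit are described here without a test. Cells with 3 of the 6 markers, just outside, numbered 60, 172, 120 and 139 with LNR, sham, SAR131675 and control diet, and cells with 4, just inside, numbered 58, 136, 97 and 94. Scd1 was at 1403, 1050, 972 and 1431 CPM in cells with 3 markers and at 5617, 2560, 2824 and 3539 CPM in cells with 4. Scd1 was at 95.3 to 111 CPM in cells with no marker. Plin2, a lipid droplet protein, did not follow this order in every library. It was at 1256, 822, 922 and 1202 CPM in cells with 3 markers and at 1898, 609, 949 and 1473 CPM in cells with 4. In cells with 5 it was at 1127, 936, 1136 and 1077 CPM.

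Lipid genes took a larger part of the mRNA in sebaceous cells than in the others, also with the rule's genes left out. A group of 151 genes on 9 lipid lists took 10.7% of UMIs in sebaceous cells with LNR, 8.84% with sham, 7.57% with SAR131675 and 8.30% with control diet, against 0.828 to 0.945% in other kept cells. The 6 rule genes are among them, and the other 145 took 9.88%, 8.18%, 6.91% and 7.54%, against 0.825 to 0.942%. Across all genes with at least 100 UMIs in sebaceous cells, 229 of 10113 were at least 4-fold higher than in other kept cells in all 4 libraries (2.26%) and 101 were at least 4-fold lower (0.999%). Among the 15 genes with the largest lowest difference were Fa2h, Far2, Cidea, Serpina3j, Serpina3b, Soat1, Scd1, Elovl6, Acoxl, Scd3, Elovl3, Mgll, Mc5r and Paqr7.

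**Figure D2:**
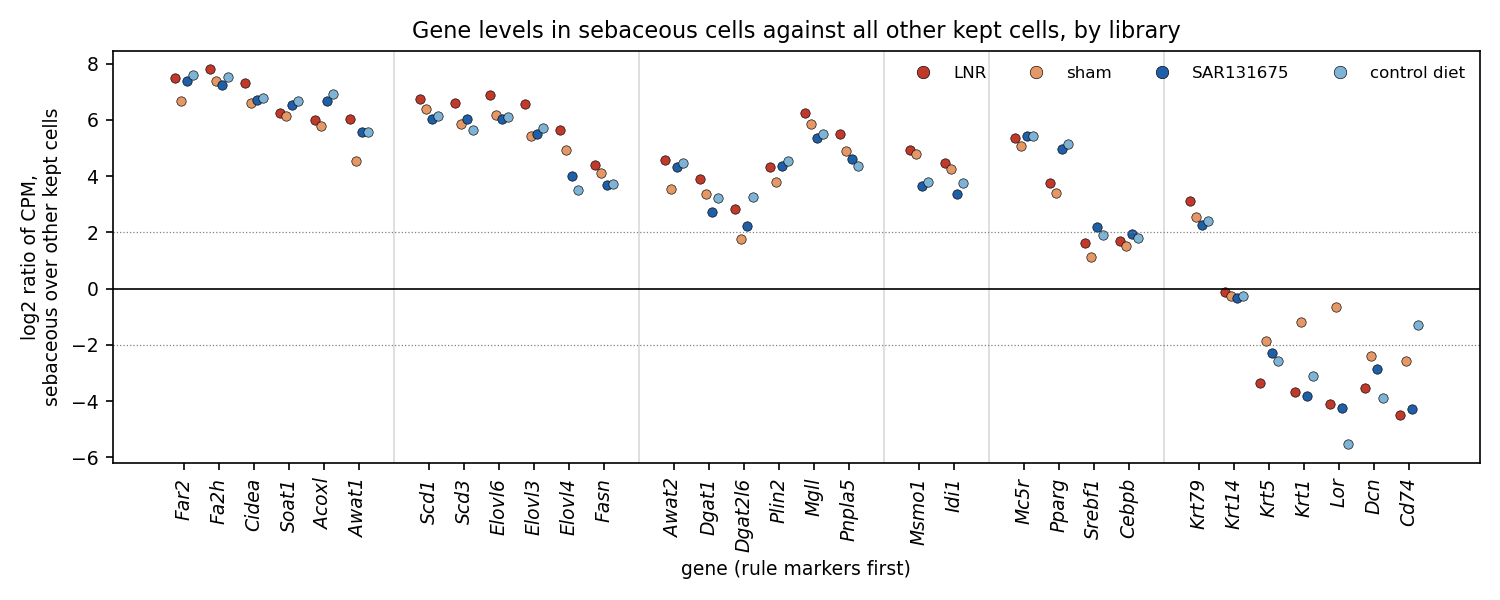
Log2 ratio of CPM in sebaceous cells to CPM in all other kept cells of the same library, with 5 CPM added to each side (y axis), for chosen genes (x axis), with 1 point per library. Dotted lines mark 4-fold, and genes of lipid synthesis lie above the upper line in most cases, while Krt5, Krt1, Lor, Dcn and Cd74 lie below 0 in all 4 libraries.

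Genes of fatty acid synthesis, desaturation and elongation formed the first group. Of 10 measured synthesis and desaturation genes 7 were at least 4-fold higher than in other cells in all 4 libraries, and of 11 elongation genes 7. Fasn, the fatty acid synthase, was at 826, 690, 502 and 532 CPM with LNR, sham, SAR131675 and control diet, 3.67 to 4.40 higher than in other cells on the log2 scale. Acacb, a carboxylase that forms malonyl-CoA, was 4.91 to 5.37 higher. Me1, which supplies NADPH, was 3.12 to 4.19 higher.

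Not every isoform took part. The related desaturase Scd2 was lower in sebaceous cells than in the others (at most 45.8 CPM, a difference of -2.28 to -1.12), where Scd1 and Scd3 were higher. The elongases divided in the same way. Elovl6, which extends palmitate, was at 5485, 4466, 5404 and 5498 CPM, a difference of 6.03 to 6.91, and Elovl4, which makes very long chains, was at 7879, 6295, 5141 and 4521 CPM, a difference of 3.51 to 5.64. Elovl1 was at 8.81 to 30.8 CPM, a difference of -2.39 to -0.76, and Elovl2 was at 1 UMI in all libraries together.

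Ester formation is the step that turns fatty acids into sebum. Of 11 measured genes for wax, sterol and glycerol esters 6 were at least 4-fold higher in all 4 libraries. Of these, Far2, which reduces acyl-CoA to fatty alcohols, Awat1 and Soat1 were used by the rule. The others included Awat2, a wax synthase (140, 86.4, 164 and 173 CPM with LNR, sham, SAR131675 and control diet, 3.55 to 4.57 higher), and Dgat1, which completes triglycerides (at most 213 CPM, 2.72 to 3.91 higher). Dgat2, the other triglyceride synthase, was at 101 to 175 CPM and differed by 0.74 to 1.23. Soat2 and the monoacylglycerol acyltransferases Mogat1 and Mogat2 had at most 1 UMI in any library.

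Among lipid droplet genes and lipases 7 of 13 were at least 4-fold higher in all 4 libraries. Mgll, monoacylglycerol lipase, was at 3481, 3054, 2303 and 2783 CPM (5.37 to 6.24 higher), and Pnpla5, a droplet lipase, at 276, 199, 131 and 113 CPM (4.35 to 5.51 higher). Droplet genes known from fat cells were not uniform here, and sebaceous cells were not compared with fat cells. Cidec, a droplet protein on the adipocyte list, was at 3.39 to 16.6 CPM. Plin1, the coat protein of adipocyte droplets, was at most at 1.01 CPM, and Lipe, hormone-sensitive lipase, at most at 4.27 CPM, whereas Plin2 and the rule gene Cidea (857 to 1634 CPM) were abundant.

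The genes of the cholesterol pathway were high together, with 12 of 21 at least 4-fold higher in all 4 libraries. Idi1, which isomerizes the pathway's building block, was at 1659, 1346, 1125 and 1227 CPM with LNR, sham, SAR131675 and control diet (3.36 to 4.48 higher). Msmo1, a sterol oxidase, was at 1586, 1424, 921 and 1027 CPM (3.67 to 4.94 higher). An exception was Sc5d, a late sterol desaturase, at 2.88 to 13.2 CPM and lower than in other cells (-2.65 to -0.76).

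Peroxisomal and sphingolipid genes followed. Of 19 measured peroxisomal genes 12 were at least 4-fold higher in all 4 libraries, with the rule gene Acoxl counted, among them Crat, carnitine acetyltransferase (167 to 488 CPM, 3.95 to 5.06 higher), Cat, catalase (357 to 536 CPM, 3.17 to 3.63 higher) and Acox2, an oxidase of branched chains (43.0 to 77.4 CPM, 2.66 to 3.70 higher). Of 14 sphingolipid genes only Fa2h, Cers4 and Cers5 passed this limit, and Cers4, a ceramide synthase, was at 2486 to 3192 CPM (4.65 to 5.40 higher) while Cers3 was at 0.678 to 4.20 CPM. Among 8 acyl-CoA synthetases 4 passed, including Slc27a4, a fatty acid transporter (360 to 882 CPM, 4.11 to 5.40 higher). Among 15 lipid carriers and retinoid genes 3 passed, including Fabp5, a fatty acid binding protein, which was at 21367, 17683, 10493 and 11534 CPM with LNR, sham, SAR131675 and control diet.

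Transcription factors had a median lowest difference of 0.69, against -0.32 over all genes. Of 14 measured transcription factors Pparg and Ppara were at least 4-fold higher in all 4 libraries. Srebf1, the activator of lipid synthesis, was at 128, 82.6, 225 and 212 CPM (1.12 to 2.18 higher), and Cebpb at 1085, 860, 1234 and 883 CPM (1.53 to 1.95 higher). Mlxipl, the glucose-responsive factor, was at 1.19 to 3.77 CPM, and Gata6, known in the upper follicle and sebaceous duct, at 1.61 to 6.03 CPM. Of 13 receptors and growth signals Mc5r was the one past 4-fold, and Lgr6, a follicle stem cell receptor, was lower (-1.91 to -1.18).

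Ligands and receptors of lymphatic vessels and osteoclasts, the subject of the study, had lower summed levels in sebaceous cells than in other kept cells. The 16 listed summed to 194, 236, 421 and 384 CPM with LNR, sham, SAR131675 and control diet, against 670, 576, 560 and 554 CPM. Vegfc, the main lymphatic growth factor, was at 0.339 to 1.82 CPM, Tnfsf11 (RANKL), the osteoclast ligand, at 0 to 1.48 CPM, and Flt4, which encodes VEGFR3, at 0 to 2.20 CPM. Nrp2, a co-receptor of VEGFC, had the highest level of the 16 in each library and was 0.81 to 2.08 higher than in other cells. It was at 92.3, 79.8, 262 and 269 CPM with LNR, sham, SAR131675 and control diet. Vegfa was at 23.9 to 42.0 CPM and Cxcl12 at 11.8 to 64.4 CPM. Of 8 such genes with at least 100 UMIs, 0 were at least 4-fold higher or lower in all 4 libraries. By any amount 2 were higher and 5 lower in all 4, with a median lowest difference of -2.06, against -0.32 over all genes.

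Genes of the other epithelial cells were mostly low. Of 7 measured genes of the follicle infundibulum and sebaceous duct, 1 (Krt79) was at least 4-fold higher in all 4 libraries and 6 were lower than in other cells in each, and of 7 outer follicle genes 1 was higher in each and 5 lower. The median lowest differences of these lists were -3.46 and -2.42, against -0.32 over all genes. How many of all genes were lower in each library was not counted. Krt14, a keratin of basal and follicle cells, was at 2675, 2687, 2412 and 2478 CPM, close to the other kept cells (-0.32 to -0.13), while its basal partner Krt5 was lower (185, 551, 376 and 311 CPM, -3.36 to -1.88). Krt79, a keratin of the sebaceous duct and upper follicle, was at 2575, 2176, 1243 and 1420 CPM (2.25 to 3.11 higher). Of 8 measured basal keratinocyte genes 1, Krt15, was at least 4-fold lower in all 4 libraries, and of 8 spinous and 6 granular genes 0 were. All 8 granular genes of the list summed to 49.6 CPM with LNR, 107 with SAR131675 and 53.3 with control diet, against 669, 2149 and 3071 CPM in other kept cells, and with sham to 502 against 767 CPM, or 27.9 CPM without mixed barcodes. The 8 spinous genes summed to 4601 CPM with LNR, 3107 with SAR131675 and 2756 with control diet, against 15471, 18743 and 23636 CPM in other kept cells. Of the sums in sebaceous cells, Sbsn made up 1993, 1022 and 1050 CPM and Dmkn 1361, 556 and 512 CPM in that order. With sham they summed to 10711 against 16722 CPM, or 3832 CPM without mixed barcodes. Granular and spinous genes were used to define mixed barcodes, so their levels without such barcodes are partly fixed by that choice. At least 4-fold lower in all 4 libraries were also 2 of the outer follicle genes and 5 of 8 fibroblast genes.

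Sebaceous cells were also set against 3 groups of other kept cells, each defined by detected epithelial genes and not matched for depth. Infundibulum-type cells (Krt79 and Defb6 detected, 3868 cells) served as one comparison, and 207 genes were at least 4-fold higher in sebaceous cells in all 4 libraries (2.05%) and 42 lower (0.415%). Against outer-follicle-type cells (Sostdc1 and Lrig1 detected, 8732 cells) 231 were higher (2.28%) and 34 lower (0.336%), and against granular-type cells (at least 3 of Lor, Flg, Flg2, Ivl and Klk7 detected, 3722 cells) 261 were higher (2.58%) and 163 lower (1.61%). Outer-follicle-type cells were 14.9% of kept cells with SAR131675 and 11.6% with control diet, the deeper libraries, and 3.88% with LNR and 4.06% with sham. Krt79 was lower in sebaceous cells than in infundibulum-type cells, whose rule used it (-2.12 to -0.81), and higher than in outer-follicle-type cells (0.69 to 1.16). Krt17, a keratin of the outer root sheath, was lower than in all 3 groups, with differences of -7.61 to -3.90, -5.77 to -2.42 and -5.91 to -3.06.

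Sebaceous cells were not uniform. They were clustered within each pair, with the 6 rule genes left out of the clustering, into 7 sub-clusters of 57 to 113 cells in the SAR131675 pair and 9 of 53 to 147 cells in the LNR pair. The sub-clusters are numbered and not named, and their genes are described without a test because the clustering used them. They are taken up below in an order chosen after their values were seen, from few lipid genes to cholesterol genes and then to elongases and ester synthases, and no order of the cells was computed.

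Sub-cluster 1 of the SAR131675 pair (92 cells) was led by Ccnd2, a cell cycle cyclin, and Sostdc1. Its Scd1 level was 1519 CPM, below the 3087 to 16818 CPM of the other 6. Krt5 was at 775 CPM and Mki67, a marker of division, at 117 CPM, and both were higher in sub-cluster 2 of this pair (1536 and 160 CPM), where 48 of 88 barcodes were mixed. Immediate early and stress genes summed to 4508 CPM in sub-cluster 1. Notch1 was highest there (310 CPM). In the LNR pair sub-cluster 2 (53 cells) was led by genes that include Krt5, Ccnd2 and Krt15, with Krt5 at 1144 CPM, Mki67 at 79.8 CPM and Scd1 at 4229 CPM, and 14 of its 53 barcodes were mixed.

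Other sub-clusters had the highest sterol genes. Cholesterol list genes summed to 21748 and 27164 CPM in sub-clusters 5 and 6 of the SAR131675 pair and to 22274 and 27009 CPM in sub-clusters 6 and 8 of the LNR pair. Soat1 was highest in the same sub-clusters, at 3242, 3421, 2261 and 2730 CPM, as was Mgst1, at 6725, 6648, 7364 and 7623 CPM. Hmgcs1 and Idi1 were high there as well (2167 to 3765 CPM and 2785 to 3796 CPM). Sub-cluster 6 of the SAR131675 pair was shallow, with a median of 6524 UMIs per cell.

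A further set, sub-cluster 7 of the SAR131675 pair (72 cells) and sub-clusters 7 and 9 of the LNR pair (56 and 102 cells) held the most Elovl4 (37125, 25713 and 31832 CPM), Scd3 (3896, 4758 and 3314 CPM) and Awat1 (3378, 3395 and 1402 CPM). Prdm1 was concentrated in them (96.1, 135 and 70.7 CPM, against at most 26.2 CPM elsewhere), although its level over all sebaceous cells was near that of the digit. Hmgcs1 was lower than in those with the highest sterol genes, at 662, 321 and 745 CPM, and so was Soat1, at 1065, 225 and 942 CPM. The promoters printed above belong to genes of these last sets.

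**Figure D3:**
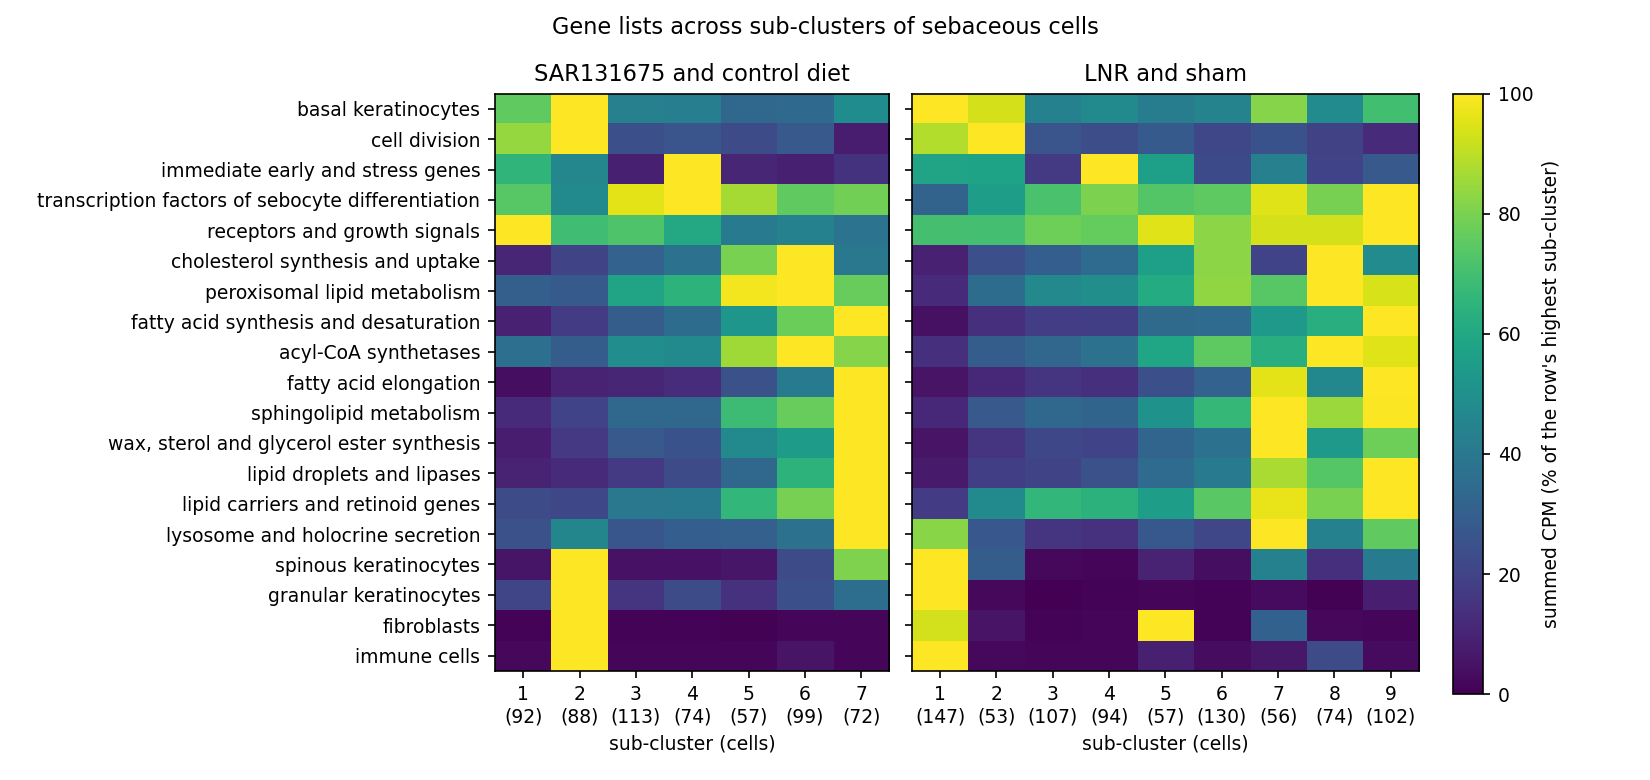
Summed CPM of each gene list (rows) in each sub-cluster of sebaceous cells (columns, with the number of cells), as a percent of the list's highest sub-cluster within the pair. Cholesterol genes peak in sub-clusters 6 (left) and 8 (right), ester synthesis in sub-cluster 7 of both pairs, and spinous and granular keratinocyte genes in sub-clusters 2 (left) and 1 (right).

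Further sub-clusters carried other signals. Immediate early and stress genes, which can respond to tissue digestion, summed to 6889 CPM in sub-cluster 4 of the SAR131675 pair and to 5171 CPM in sub-cluster 4 of the LNR pair, with Jun at 1244 and 923 CPM. Their part in the grouping was not tested. The mixed sub-cluster 2 of the SAR131675 pair held Dcn, a fibroblast proteoglycan, at 1928 CPM and Krt10 at 4790 CPM. Sub-cluster 3 of that pair was led by hemoglobin genes. In the LNR pair, sub-cluster 5 (57 cells) was led by genes that include Cytl1, Dcn and Col2a1. Scrublet called 13 of its cells (22.8%), the largest share in that pair, and 15 of its barcodes were mixed. The definition of mixed barcodes did not include cartilage genes.

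Sub-cluster 1 of the LNR pair came almost wholly from sham. It held 145 of the 501 sham sebaceous cells (28.9%) and 2 of the 319 LNR cells (0.627%), and all 147 barcodes were mixed. Its Krt10 level was 9325 CPM, that of Lor, a cornified envelope protein, 883 CPM and that of Col1a1, a fibroblast collagen, 1114 CPM, and Scd1 was at 1069 CPM, the lowest of the 9. The other sub-clusters of the LNR pair held 4.99 to 16.0% of sham and 7.52 to 17.9% of LNR cells.

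Between SAR131675 and control diet the sub-clusters had like sizes in most cases. Sub-cluster 1 held 58 SAR131675 cells (19.0%, exact interval 14.7 to 23.8%) and 34 control diet cells (11.8%, 8.29 to 16.1%), and sub-cluster 6 held 39 (12.7%, 9.22 to 17.0%) and 60 (20.8%, 16.2 to 25.9%). Their intervals overlapped. Sub-cluster 7, with the most Awat1, held 36 cells of each library (11.8% and 12.5%).

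The level of Awat1, a wax ester synthase, varied widely among sebaceous cells. Cells with at least 5 Awat1 UMIs were 99 of 319 with LNR (31.0%), 126 of 501 with sham (25.1%), 47 of 306 with SAR131675 (15.4%) and 45 of 289 with control diet (15.6%), cells with 0 were 191, 265, 227 and 190, and cells with 1 to 4, left out of this comparison, were 29, 110, 32 and 54. Median depth of the Awat1-rich cells was 22776, 21797, 17469 and 17277 UMIs, against 17657, 16242, 17754 and 16622 UMIs in cells with 0. Of 9708 genes, 196 were at least 4-fold higher in Awat1-rich cells in all 4 libraries (2.02%) and 25 were at least 4-fold lower (0.258%). Awat1 belongs to the rule, so cells with and without it met the rule through different genes, and the following is a description. Genes outside the lists in this comparison were chosen after their values had been seen.

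Genes of very long chain lipids and of ester synthesis were higher in the Awat1-rich cells. Elovl4 was at 21960, 20020, 29269 and 22359 CPM in them with LNR, sham, SAR131675 and control diet and at 23.6, 204, 94.6 and 156 CPM in cells with 0 Awat1 UMIs, a difference of 6.59 to 9.59 on the log2 scale. Scd3 was at 2660, 2428, 3095 and 2258 CPM against 12.4, 17.3, 40.7 and 45.2 CPM. The wax synthase Awat2 differed by 3.59 to 4.29, and Dgat1 by 2.88 to 3.32. Of 11 ester genes 5 were at least 4-fold higher in all 4 libraries, of 11 elongation genes 3, and of 12 droplet and lipase genes 4, and the 5 ester genes include Awat1 itself, which the split fixed.

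Pnpla5 was at 767, 633, 728 and 522 CPM in the Awat1-rich cells and at 2.42, 5.31, 2.10 and 8.42 CPM in cells with 0. Hilpda, an inhibitor of droplet lipolysis, differed by 4.21 to 5.05, Cers5, a ceramide synthase, by 4.49 to 5.12 and Smpd1, the acid sphingomyelinase of lysosomes, by 4.40 to 5.30. Ctsd, a lysosomal protease, was at 3120, 2802, 2675 and 2377 CPM against 452, 439, 351 and 297 CPM. It was the only 1 of 11 measured lysosome and holocrine genes at least 4-fold higher in all 4 libraries. Of 12 such genes 9 were lower in sebaceous cells as a whole than in other kept cells of every library. The median lowest difference of the 12 was -2.08, against -0.32 over all genes. The share of all genes lower in every library was not counted. Prdm1 differed by 2.57 to 3.58, and Sbsn, a gene of differentiating keratinocytes, by 2.29 to 4.66. Akr1c21 and Nupr1 were among the genes outside the lists, with Akr1c21 at 1088 to 1833 CPM against at most 8.08 CPM.

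The sterol genes did not move as 1 group. Msmo1 was at 3104, 3237, 3208 and 2568 CPM in Awat1-rich cells and at 575, 537, 382 and 471 CPM in cells with 0, a difference of 2.42 to 3.05. Hmgcs1 differed by -0.77 to -0.19, Idi1 by -0.89 to -0.00 and Soat1 by -0.24 to 0.42. Msmo1 was the only one of the 21 cholesterol genes at least 4-fold higher in all 4 libraries. Pparg, at 135, 135, 577 and 477 CPM against 134, 116, 656 and 719 CPM, differed by -0.59 to 0.22.

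Genes lower in the Awat1-rich cells were fewer. Apoe, a lipid carrier, was at 662, 760, 852 and 808 CPM in them with LNR, sham, SAR131675 and control diet and at 9085, 7196, 5680 and 6039 CPM in cells with 0, a difference of -3.77 to -2.73. Notch1 differed by -3.91 to -2.27, and outside the lists Akr1c18, a hydroxysteroid dehydrogenase, by -5.14 to -4.46 and Igfbp2 by -4.03 to -3.12. Krt5 (-1.76 to -1.37), Myc (-2.65 to -1.51) and Mki67 (-1.89 to -1.07) were lower in all 4 libraries by less. Fos and Jun were lower too, by -2.58 to -1.93 and -2.33 to -1.55.

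**Figure D4:**
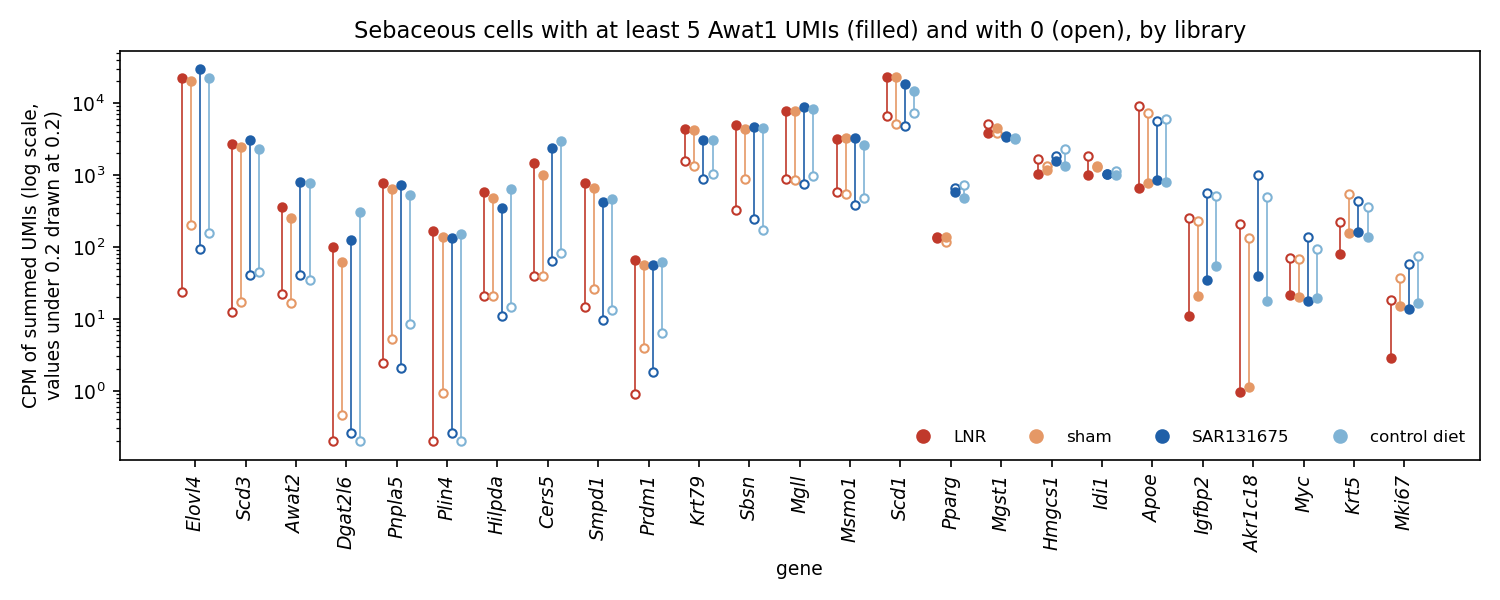
CPM of chosen genes (y axis, log scale, values under 0.2 drawn at 0.2) in sebaceous cells with at least 5 Awat1 UMIs (filled points) and with 0 (open points), joined for each library. Elovl4, Scd3 and Pnpla5 are higher in the Awat1-rich cells of all 4 libraries, Apoe, Igfbp2 and Akr1c18 lower, and Mgst1, Hmgcs1 and Pparg lie close together.

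Whether VEGFR3 inhibition changed these cells was asked by comparing SAR131675 with control diet. The sebaceous share was 1.05% with SAR131675 and 1.20% with control diet, a log2 ratio of -0.19 (interval -0.43 to 0.044). Over the other settings the ratio ran from -0.31 to -0.056. Its interval lay below 0 among keratin-bearing cells alone (-0.55 to -0.076), with at least 3 markers (-0.48 to -0.085) and without other-lineage barcodes (-0.57 to -0.049), and it held 0 with no upper limits (-0.21 to 0.10) and in the remaining settings. Of 8211 genes with at least 100 UMIs, 35 were at least 2-fold higher with SAR131675 (0.426%) and 28 at least 2-fold lower (0.341%). These counts were unstable. They were 10 and 3 after thinning, 30 and 16 without mixed barcodes, 68 and 64 with at least 3 markers and 89 and 71 with no upper limits, and more genes were lower than higher without called doublets (22 and 34), by the mean of each cell's CPM (42 and 71) and with genes of at least 50 UMIs (61 and 71). The sebaceous markers outside the rule had a median log2 ratio of -0.11 over 14 genes, against -0.03 over all genes, and 11 of them were lower, 1 past 2-fold.

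Few genes for esters and droplets were past 2-fold, with 1 of 11 ester genes (Dgat2l6, lower with SAR131675) and 0 of 12 droplet and lipase genes. By any amount 10 of the 11, with Dgat2l6 counted, and 10 of the 12 had log2 ratios under 0. Their medians were -0.27 and -0.26, against -0.03 over all genes, and the share of all genes under 0 was not counted. Both lists include genes of the rule. Awat1, a rule gene given as a description, was at 362 CPM with SAR131675 and 571 CPM with control diet, and its log2 ratio ran from -1.03 to -0.11 over the other settings. Dgat2l6, a relative of the wax synthases, was at 21.9 and 56.8 CPM (-1.37, -1.72 to -1.04), with 33.2% of its control diet UMIs in 1 cell. The other wax synthase, Awat2, was at 164 and 173 CPM (-0.08, -0.22 to 0.07), and its log2 ratio ran from -0.19 to 0.41 over the other settings.

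Hilpda was at 71.3 CPM with SAR131675 and 138 CPM with control diet (-0.95, -1.15 to -0.76), and Dgat1 had 438 and 553 UMIs (-0.66, -0.84 to -0.48). Scd1 was at 7341 and 9086 CPM (-0.31, -0.33 to -0.29) and Cd36, a fatty acid transporter, at 199 and 274 CPM (-0.46, -0.58 to -0.33). Elovl4 lay the other way, at 5141 and 4521 CPM (0.19, 0.16 to 0.21), and so did Scd3, at 552 and 476 CPM (0.21, 0.13 to 0.30). Neither direction was stable, since in the barcodes over the upper limits both were lower with SAR131675 (Elovl4 at 5404 and 7149 CPM, Scd3 at 458 and 762 CPM), and with no upper limits the log2 ratio of Scd3 was -0.55. Of 20 cholesterol genes 0 were past 2-fold and 16 had log2 ratios under 0, with a median of -0.18, against -0.03 over all genes. Hmgcs1 was at 1790 and 2121 CPM (-0.24, -0.29 to -0.20).

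Among the regulators, Cebpb, a differentiation factor, was at 1234 CPM with SAR131675 and 883 CPM with control diet (0.48, 0.42 to 0.54), and Myc at 109 and 74.6 CPM (0.55, 0.34 to 0.76). Pparg was at 634 and 679 CPM (-0.10, -0.17 to -0.02), but its direction turned with no upper limits (0.049). Akr1c18, lower in Awat1-rich cells, was at 789 and 373 CPM (1.08, 0.99 to 1.17). Without mixed barcodes Akr1c18 was at 820 and 386 CPM and Cebpb at 1261 and 900 CPM, near the values over all cells. Fibroblast genes had a median of 0.88 over 5 genes, with 2 past 2-fold, and without mixed barcodes 4 of 4 were past 2-fold with a median of 1.42, while 1 SAR131675 cell held 50.6% of the Col1a1 UMIs of its library.

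The genes with the largest differences were not sebaceous genes and came from few cells. Krt71 and Krt25, keratins of the inner root sheath, had 320 and 295 UMIs with SAR131675 and 4 and 7 with control diet, and 304 and 280 of the former lay in 1 cell. Spink6 (161 and 1 UMIs, 98.1% in 1 cell) and Ibsp, a bone matrix protein (183 and 1 UMIs in 4 and 1 cells, and 0.421 and 0.261 CPM without mixed barcodes), were of the same kind, and Sfrp2, a secreted Wnt modulator, had 204 UMIs in 10 cells and 2 in 2. The antigen-presentation genes H2-Ab1, H2-Aa, Cd74 and H2-Eb1 were lower with SAR131675, with Cd74 at 10.2 and 102 CPM, and 42.6% of its control diet UMIs lay in 1 cell. Without mixed barcodes Cd74 was at 10.5 and 8.35 CPM, and H2-Ab1 at 2.74 and 3.39 CPM. Serpinb6c, a serine protease inhibitor, was at 6.03 and 24.6 CPM (-2.03, -2.67 to -1.43), with 58.2% of its control diet UMIs in 1 cell.

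The comparison of LNR with sham depended on the mixed sham barcodes. The log2 ratio of the sebaceous shares was -0.59 (-0.80 to -0.39), and without mixed barcodes it was -0.11 (-0.34 to 0.12). Among keratin-bearing cells alone it was -0.42 (-0.63 to -0.22). Of 8232 genes 12 were at least 2-fold higher with LNR (0.146%) and 496 at least 2-fold lower (6.03%), while without mixed barcodes 15 of 7119 were higher (0.211%) and 6 lower (0.0843%). The largest falls with LNR without mixed barcodes were those of Msmp, Prg4, Spp1, Krt17 and Gpx3, in that order. Mixed barcodes were defined by genes of these other cell types, so their levels without such barcodes are partly fixed by that choice.

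Of the 496 lower genes, those on the lists were largely genes of other cells, and the rest were not assigned to a cell type. All 6 measured granular keratinocyte genes were at least 2-fold lower with LNR, as were 6 of 8 spinous, 6 of 7 fibroblast, 6 of 7 infundibulum, 5 of 8 basal and 6 of 6 epithelial defense genes. Cell division (4 of 9) and lysosome genes (4 of 11) passed too. Lor was at 16.8 CPM with LNR and 248 CPM with sham (-3.89, -4.19 to -3.60), and at 7.76 and 8.48 CPM without mixed barcodes. Krt5 was at 185 and 551 CPM (-1.57, -1.67 to -1.48), and at 179 and 168 CPM without them. S100a3, a hair cuticle gene, had 2 and 498 UMIs. Klk10, a kallikrein protease, and Ngp, a neutrophil granule gene, had 0 UMIs with LNR and 158 and 139 with sham, which is at least 35.3-fold and 31.1-fold lower at a floor of 3 counts.

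Sebaceous genes were slightly higher with LNR over all cells and not without mixed barcodes. The 14 markers outside the rule were all higher, with a median of 0.33 (all genes -0.01), whereas without mixed barcodes the median was -0.05, against 0.01 for all genes, 6 being higher and 8 lower. Scd1 was at 12815 CPM with LNR and 10716 CPM with sham (0.26, 0.24 to 0.27), and at 13186 and 14643 CPM without mixed barcodes (-0.15, -0.17 to -0.14). Of 20 cholesterol genes 0 were then past 2-fold, and 19 had log2 ratios under 0, with a median of -0.20, against 0.01 over all genes.

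A few lipid genes were higher with LNR with and without mixed barcodes, although most lipid lists did not follow them without mixed barcodes. Of 18 peroxisomal genes 2 were then higher and 16 lower, of 11 ester genes 6 and 5, and of 14 transcription factors 9 and 5. Of 10 fatty acid synthesis and desaturation genes 1 was higher and 9 lower, and of 10 elongation genes 2 and 8. The median log2 ratios of these lists were -0.10, 0.12, 0.06, -0.13 and -0.08 in that order, against 0.01 over all genes. How many of all genes were higher or lower by any amount was not counted. Srebf1 was at 128 CPM with LNR and 82.6 CPM with sham (0.63, 0.48 to 0.78), and at 131 and 95.2 CPM without mixed barcodes (0.46, 0.30 to 0.62). Acox2 was at 77.4 and 43.0 CPM (0.85, 0.65 to 1.05), and at 81.4 and 57.7 CPM (0.50, 0.29 to 0.70). Awat1, a gene of the rule and so given as a description, was at 613 and 413 CPM, and at 636 and 566 CPM. Dgat2l6 was at 35.6 and 19.1 CPM, and at 37.3 and 26.3 CPM (0.51, 0.20 to 0.81). These differences were smaller once mixed barcodes were left out, and that of Dgat2l6 was -0.61 among cells with at least 5 markers.

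Of the 5 largest values higher with LNR, 4 lay mostly in 1 cell. Col2a1, a cartilage collagen, had 113 UMIs with LNR, all in 1 cell, and 97.2% of the Cytl1 UMIs and 98.7% of the Snorc UMIs of LNR lay in 1 cell. Ccl21a, a chemokine of lymphatic endothelium, had 203 UMIs with LNR and 59 with sham, and 56.7% of the former lay in 1 cell, while without mixed barcodes it was at 24.0 and 0.652 CPM and without called doublets its log2 ratio was -1.01. Cytl1 was then lower with LNR, at 2.16 and 6.52 CPM. Red cell genes were past 2-fold higher in 4 of 4 cases without mixed barcodes, with Hbb-bs at 250 and 105 CPM and 69.8% and 48.0% of its UMIs over all cells in 1 cell. Serpinb6c was at 24.9 and 6.47 CPM (1.94, 1.49 to 2.41), spread over 16 and 19 cells, and at 26.5 and 8.15 CPM without mixed barcodes, but its log2 ratio was 0.067 among cells with at least 3 markers.

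**Figure D5:**
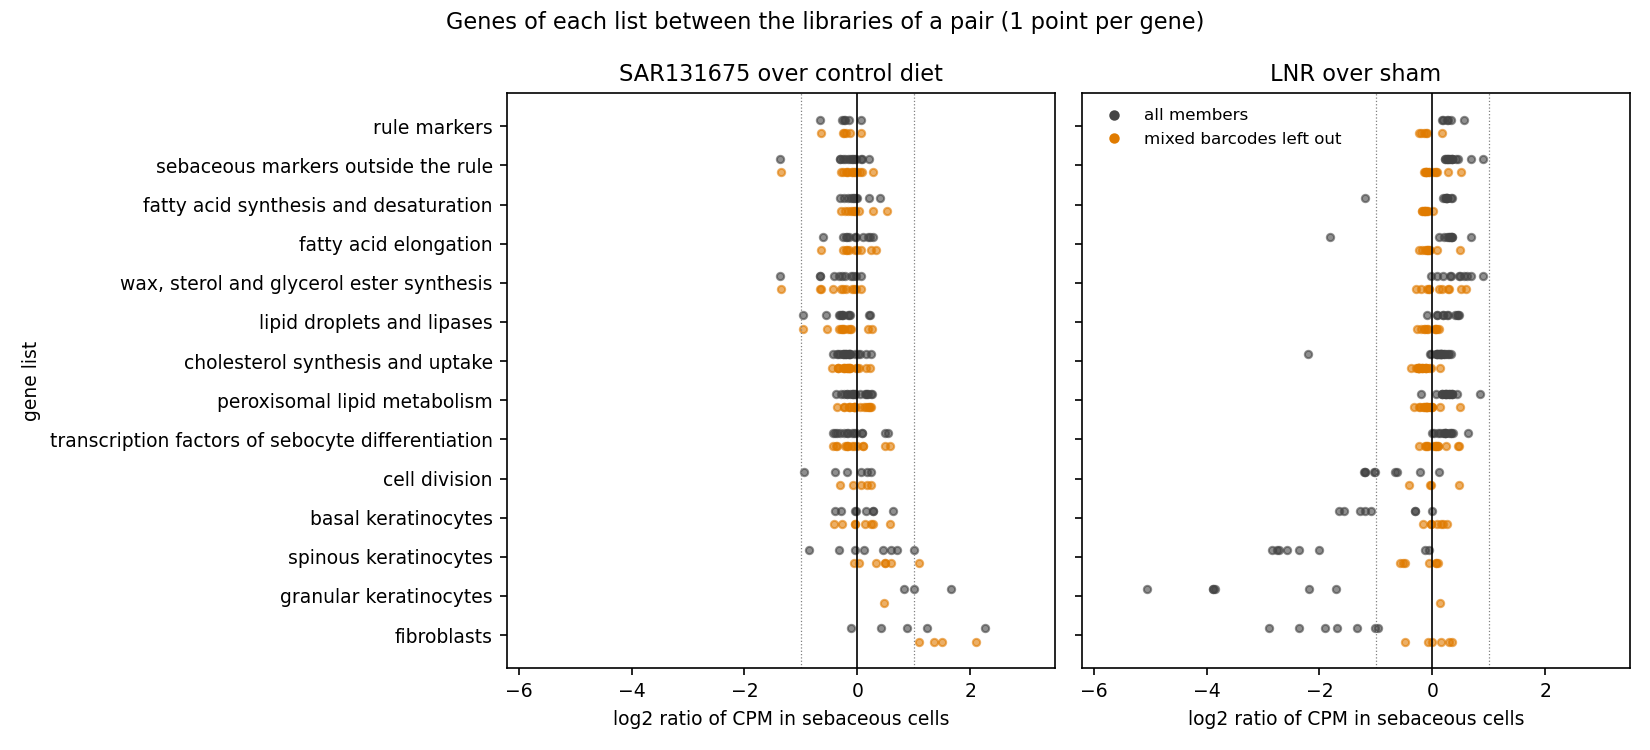
Log2 ratio of CPM in sebaceous cells (x axis) for the genes of each list (y axis, 1 point per gene with at least 100 UMIs), for SAR131675 over control diet (left) and LNR over sham (right), over all sebaceous cells (dark) and without mixed barcodes (orange). Granular, spinous and fibroblast genes reach the lowest values with LNR over all sebaceous cells, and lipid genes stay within 2-fold (dotted lines) in most cases.

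The pairs were set side by side for the genes that were higher, or lower, in both. The largest shared higher values were those of Gm13398 (0.90 in the SAR131675 pair and 0.92 in the LNR pair), Akr1c18 (1.08 and 0.80), Rnase2b, a ribonuclease (0.58 and 0.72), Ppcs, a coenzyme A synthesis enzyme (0.51 and 0.52), and Ccdc28b (0.51 and 0.71). Some of these directions turned under another setting, with Rnase2b at -0.32 in the LNR pair among cells with at least 5 markers, Ccdc28b at -0.29 in the SAR131675 pair with no upper limits and Ppcs at -0.0070 there after thinning. Without mixed barcodes Akr1c18 was 1.09 and 0.56 higher, and Gm13398, at 12.3 CPM with LNR and 9.46 CPM with sham, had an interval that included 0 (0.38, -0.15 to 0.91). The largest shared lower values were those of H2-Aa, Cd74, H2-Ab1, H2-Eb1 and Prg4, a joint lubricant protein, and of these only Prg4 stayed lower with LNR without mixed barcodes (59.0 and 291 CPM). In the SAR131675 pair Prg4 was then at 24.9 and 23.2 CPM.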

How the data were processed

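The chemistry named for the 4 single-cell RNA-Seq libraries, each a pool of 10 mice, is 10x Single Cell 3' v3. LNR and sham shared 130 barcodes and SAR131675 and control diet 348, against 0 to 3 between libraries of different pairs. Whether the pairs used the same set of barcodes was not tested. The authors deposited raw UMI counts for 33696 genes per barcode, and per the file headers Cell Ranger 6.1.2 made the LNR and sham matrices and 8.0.1 those of SAR131675 and control diet, whereas the submitters' processing notes name 6.1.2 for all. Barcodes were filtered and called sebaceous as stated in the report, counts were summed over cells per library, and 0 columns were left unused. The members and gene lists were chosen with earlier results of these data known. With 1 library per condition no test was made. Genes with at least 100 UMIs were compared, at 4-fold against other cells (5 CPM added to each side) and at 2-fold within a pair (0.5 UMI added for counting and ranking, none for the printed ratios). Intervals are exact (Poisson, conditional or Clopper-Pearson, 95%). Named genes were those of the lists with at least 20 UMIs in the pair or at 0, the 15 leading sebaceous genes and the 5 largest and 5 largest shared differences in each direction. Genes of sub-clusters and of the Awat1 split outside these were chosen after their values were seen.

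Sub-clusters came from scanpy 1.11.5 and igraph 0.11.9 (20 principal components, 15 neighbors, resolution 0.5), and doublets from Scrublet at an expected 0.8% per 1000 cells, and doublet calls were not removed. Python 3.11.15, numpy 2.4.6, scipy 1.17.1, pandas 2.3.3 and matplotlib 3.10.9 were used, and scripts were tested on simulated data. A few genes of the lists are not reported here by name. Alternatives were at least 3 or 5 markers, no upper limits, removal of called doublets or of other-lineage barcodes, keratin-bearing cells, thinning, per-cell means, and gene minimums of 50 and 1 UMIs. Of the lists not described elsewhere, lysosome and holocrine (12), cell division (12), red cell (4), immediate early (10), epithelial defense (7), adipocyte (2) and endothelial (2) genes measured had 0 members at least 4-fold higher or lower than in other cells in all 4 libraries, sweat gland genes were too low, and of 5 immune and 3 melanocyte, Schwann and muscle genes 1 and 2 were lower.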

Additional observations from a re-analysis of the deposited data

Results flagged for a closer look

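Sebaceous genes were also detected in barcodes outside the main comparisons. Barcodes with at least 4 of the 6 markers outside the limits on cells numbered 156 with LNR, 164 with sham, 501 with SAR131675 and 371 with control diet. Those over the gene or UMI limit alone (112, 122, 433 and 330) held 10.8%, 11.1%, 10.6% and 12.0% of their UMIs in the 151 lipid genes. Fabp5 was at 21001, 22034, 18945 and 22307 CPM in them, against 21367, 17683, 10493 and 11534 CPM in the sebaceous cells within the limits.

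Kept cells with at least 5 Awat1 UMIs that missed the rule numbered 8 with LNR, 27 with sham, 12 with SAR131675 and 17 with control diet, and 8, 24, 9 and 16 of them had 3 markers. Outside the rule's genes, Nupr1 was at 15835, 13443, 12716 and 12946 CPM and Elovl4 at 10220, 15244, 6864 and 7369 CPM. Their Scd1 level, at 2916, 3236, 1242 and 1099 CPM, was below that of the sebaceous cells in each library.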

How the results depend on the processing

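Each condition is 1 library, so counting intervals say nothing of the spread between animals, and no library could be left out. No paired analysis was possible because each group is 1 library pooled over mice, even where LNR and sham may share animals. The alternative without mixed barcodes was chosen after seeing the data. The count of 229 genes higher in sebaceous cells stayed within 1.5 times under every setting run.

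Over the comparisons 56 values kept their direction and size, 29 moved and 2 reversed. Without other-lineage barcodes the LNR share ratio was -0.24, the LNR marker median -0.014 and the count lower with LNR 4, and without mixed barcodes -0.11, -0.055 and 6, with 16 lower with SAR131675. Thinning gave a share ratio of -0.31 and a marker median of 0.023 in the LNR pair, with 2 higher and 6 lower, and 10 higher and 3 lower with SAR131675. At least 3 markers gave 68 higher and 64 lower with SAR131675 and an LNR median of 0.44, and at least 5 gave an LNR median of 0.11 and 239 lower. No upper limits gave 89 higher, 71 lower and an LNR median of 0.22. Removing called doublets gave 22 higher with SAR131675, and per-cell means 71 lower. A minimum of 50 UMIs gave 61 higher and 71 lower with SAR131675 and 28 and 779 with LNR, and of 1 UMI 2181, 2799, 1309 and 4407.

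Among single genes 407 values were kept, 283 moved and 18 reversed, and 68 gave no value. In the SAR131675 pair H2-Aa was 0.78, Cd74 0.40, H2-Eb1 1.07 and Prg4 0.086 without other-lineage barcodes, and 0.41, 0.33, 0.97 and 0.097 without mixed barcodes. Prg4 was 1.37 with at least 3 markers and 0.75 with no upper limits. In the LNR pair without mixed barcodes Cytl1 was -1.55, Snorc -4.15, H2-Aa 0.82, Cd74 1.67, H2-Ab1 1.64 and H2-Eb1 1.24. Cd74 was 0.15 without other-lineage barcodes, and Ccl21a was -1.01 without called doublets. Causes beyond the fewer cells or genes in each setting were not tested.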
